A study of Mus musculus with 6 samples.

Results

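The genes described here encode the bone morphogenetic protein (BMP) and transforming growth factor beta (TGF-beta) signalling system. They are 38 of the 33308 genes in the deposited table, taken by gene name from a list of 13 ligands, 10 receptors, 7 antagonists and 8 targets and SMADs. RNA-seq was carried out on mouse skin, with 3 samples from mice given osimertinib for 42 days and 3 samples from untreated control mice. Osimertinib is a lung cancer drug that blocks mutant EGFR, and the study asks about the skin problems that come with it. The strain, the age, the dose, the body site and the hair stage at sampling are each left unstated in the labels. Whether each sample is a different mouse is also unstated, so that a p-value reflects sample-to-sample spread, part of which may be technical.

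BMPs, activins and TGF-betas are secreted dimers that bring together type I and type II receptor kinases, which then phosphorylate SMAD proteins. BMP receptors act mainly through Smad1 and Smad5, and switch on the Id genes and the inhibitory SMADs, while activin and TGF-beta receptors act mainly through Smad2 and Smad3. Secreted antagonists such as noggin and gremlin hold BMPs away from their receptors, and follistatin does so for activins. In mouse skin, BMP signalling is known to hold hair follicle stem cells at rest and to act again in hair matrix cells during shaft formation, and noggin from the follicle mesenchyme opposes it.

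Library totals ran from 59877553 to 60719064 counts in osimertinib skin and from 54112624 to 57174797 counts in control skin. Skin markers were present in all 6 libraries, with Krt5 of basal keratinocytes at 1975 to 3172 FPKM in osimertinib skin and 1494 to 6257 FPKM in control skin. The 12 epidermal keratinocyte markers took 1.21% to 2.29% of the count in osimertinib skin and 1.08% to 4.33% in control skin. Their log2 fold changes were below 0 for 11 and above 0 for 1, beside 54.7% and 45.3% of all genes tested. For each of the 12 the groups overlapped. The libraries differed in tissue make-up. The 24 skeletal muscle markers took 9.23%, 5.57% and 8.81% of the count in osimertinib libraries 1, 2 and 3, against 5.60%, 16.7% and 0.0859% in controls 1, 2 and 3, with no marker at 0 in any library. The 14 hair matrix and shaft markers took 0.115%, 0.518% and 0.0780% in osimertinib skin, against 0.00324%, 0.0196% and 0.00468% in control skin, where Krt34, Krt81, Krt86 and Shh were at 0 in at least 1 library. The summed share of the 10 bulge and hair germ markers ran the other way, with no marker at 0. It was 0.203%, 0.126% and 0.0908% in osimertinib skin, against 0.712%, 0.267% and 1.003% in control skin. Krt15 alone made up most of this share in each library, and the 10 genes did not all differ alike. In CPM, explained below, 5 of the 10 lay below the controls without overlap and 0 above, beside 9.38% and 11.3% of all genes tested. The log2 fold change was below 0 for 7 of the 10 and above 0 for 3, beside 54.7% and 45.3% of all genes tested. The 15 dermal papilla markers took 0.0129% to 0.0198% in osimertinib skin and 0.00737% to 0.00862% in control skin, where Rspo2 was at 0 in at least 1 library. Wif1 was the largest single part of this difference, at 15.2, 30.6 and 19.1 FPKM against 2.44, 3.80 and 3.23 FPKM. The 15 genes did not all differ alike. Of the 7 tested, 2 lay above the controls in CPM and 0 below, beside 11.3% and 9.38% of all genes tested. The part of these differences in the values that follow was not tested. In pieces of whole skin, fewer cells of a type and less RNA per cell cannot be told apart.

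The members did not move as a block, and the differences ran both ways within the ligands and within the antagonists. The activin subunit genes Inhba and Inhbb, the ligand genes Bmp7 and Tgfb1, the pseudoreceptor gene Bambi and the inhibitory SMAD genes Smad6 and Smad7 were higher in every osimertinib library than in every control. Bmp2, the BMP antagonist genes Nog and Grem1, and the receptor genes Tgfbr2, Tgfbr3 and Acvr2a were lower in every osimertinib library. Both statements are for CPM. In the deposited FPKM values Smad7, Tgfbr2, Tgfbr3 and Acvr2a overlapped between the groups. The Id genes, the usual readout of BMP signalling, overlapped between the groups.

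Genes with a mean of at least 1 FPKM over the 6 libraries were tested, 13498 in all, and 32 of the 38 members were among them. Bmp5, Bmp8a, Bmpr1b, Acvr2b, Chrd and Chrdl1 fell below this level. Inhba passed through its level in osimertinib skin alone, since its mean was 2.00 FPKM there and 0.385 FPKM in control skin. Such a gene had to differ, and the counts of members higher or above given below include Inhba. With edgeR's quasi-likelihood test, 0 members passed an adjusted p of 0.05, and 0% of all genes tested did so in either direction. At an unadjusted p under 0.05, edgeR took 7 members as higher and 5 as lower, against 7.22% and 6.73% of all genes. DESeq2, the other count test, called 4 members higher and 3 lower, against 3.41% and 2.95% of all genes. On simulated data DESeq2 recovered more of the altered genes than edgeR but also made many more false calls, and the DESeq2 p-values here are to be read with that limit. In CPM, counts scaled to the TMM-adjusted library size, 7 tested members lay above and 6 below the controls without overlap, which is 21.9% and 18.8% of the 32, beside 11.3% and 9.38% of all genes tested. In the deposited FPKM values, which carry the authors' own scaling, 7 lay above and 3 below, beside 11.5% and 4.07% of all genes. Smad7, Tgfbr2, Tgfbr3 and Acvr2a overlapped on that scale, and Tgfbr1 did not. The log2 fold change was above 0 for 13 members and below 0 for 19, beside 45.3% and 54.7% of all genes. The members were chosen with earlier results of these data known, so an excess over the shares of all genes is a description and not independent evidence.

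**Figure D1:**
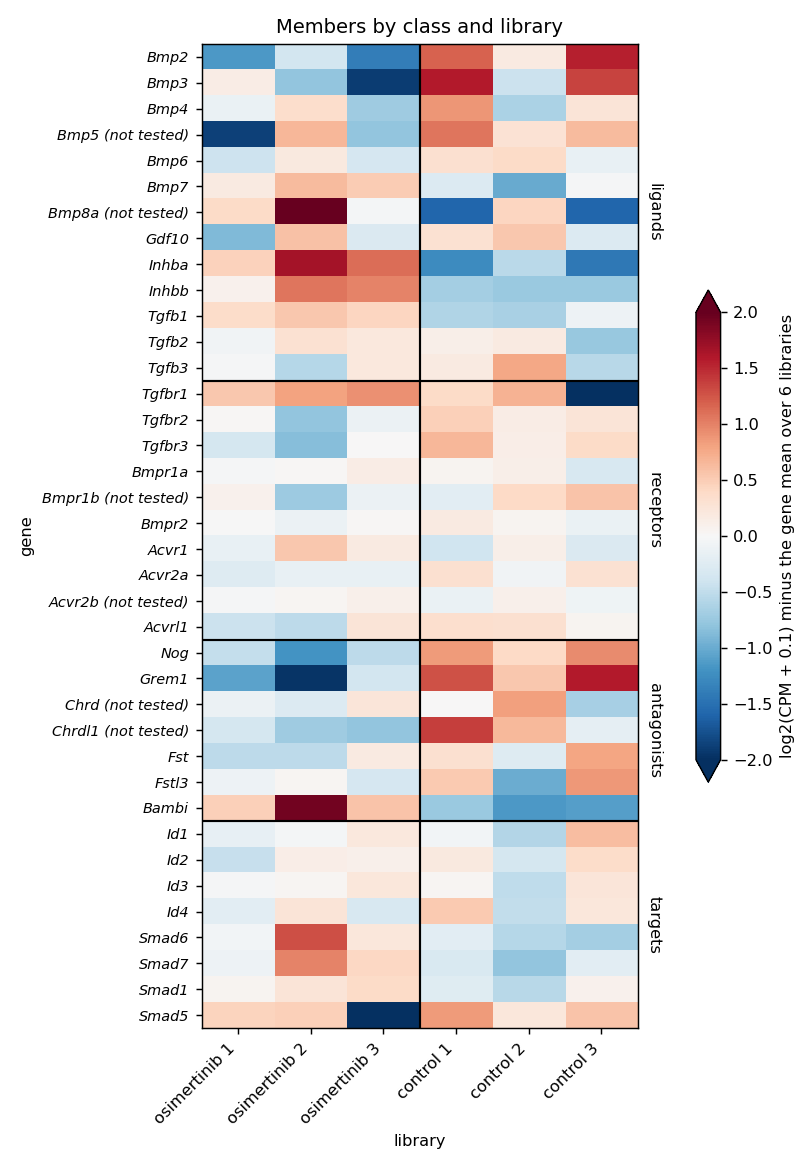
Each row is a member and each column a library, with osimertinib libraries on the left, and colour gives the distance of log2(CPM + 0.1) from that gene's 6-library mean, so that red is high and blue is low for that gene. Rows such as Inhba and Bambi are red on the left and blue on the right, Grem1 and Bmp2 the reverse, and Tgfbr1 in control 3 and Smad5 in osimertinib 3 stand out as single low values.

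**Figure D2:**
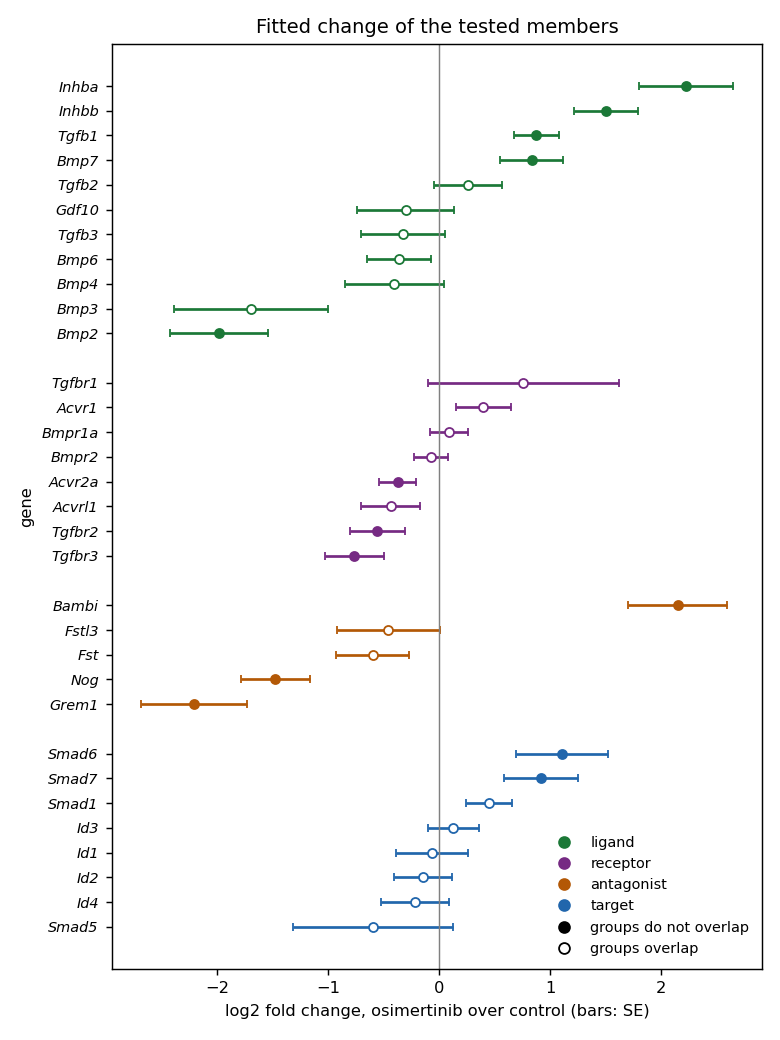
Points give the log2 fold change of osimertinib over control skin for the 32 tested members by class, and bars the standard error from edgeR (n = 3 per group). Filled points are members whose groups did not overlap in CPM, and they run from Inhba at 2.22 down to Grem1 at −2.21.

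Ligands differed in opposite directions. Inhba encodes the beta A subunit of activin A (chromosome 13, 16011851 to 16031621, GRCm38). It was at 8.77, 20.3 and 13.8 CPM in osimertinib libraries 1, 2 and 3, against 2.58, 4.32 and 2.27 CPM in controls 1, 2 and 3. The lowest treated value was above the highest control value, and the log2 fold change was 2.22 ± 0.42 (SE), or 4.67-fold (adjusted p = 0.188 by edgeR and 0.000252 by DESeq2). Inhba passed the filter only through its osimertinib level, so its difference and p-values are descriptions. Inhbb, which encodes the beta B subunit of activin B, was at 18.9, 37.6 and 35.7 CPM in osimertinib skin, against 11.2, 10.7 and 10.7 CPM in control skin. The controls lay close together and the treated values apart from them, with a log2 fold change of 1.5 ± 0.29 (adjusted p = 0.188 by edgeR and 0.000543 by DESeq2). Tgfb1, the TGF-beta isoform best known from immune and wound settings, was at 34.9, 39.6 and 36.6 CPM in osimertinib skin, against 17.9, 17.3 and 25.3 CPM in control skin. Its log2 fold change was 0.88 ± 0.20 (adjusted p = 0.21 by edgeR and 0.00333 by DESeq2). The groups were apart, and the DESeq2 call was lost without control 1.

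Within the BMP ligands, Bmp2 and Bmp7 had log2 fold changes of opposite sign. Bmp2, a BMP known to keep follicles at rest when it comes from fat and dermis, was at 9.72, 16.9 and 8.28 CPM in osimertinib skin, against 49.3, 24.5 and 63.9 CPM in control skin. Each treated value was below each control, 3.95-fold lower in the fit (log2 fold change −1.98 ± 0.44, adjusted p = 0.209 by edgeR and 0.00106 by DESeq2). Bmp7, a BMP best known from kidney and eye development, was at 38.4, 52.8 and 48.7 CPM in osimertinib skin, against 28.1, 16.8 and 33.5 CPM in control skin. The groups were apart by a smaller margin, with a log2 fold change of 0.83 ± 0.29 (adjusted p = 0.306 by edgeR and 0.0809 by DESeq2). Bmp3, a BMP that acts mainly as an inhibitor of other BMPs, was at 17.8, 9.24 and 4.24 CPM in osimertinib skin and at 48.4, 11.9 and 41.1 CPM in control skin. Control 2 fell among the treated values, and the log2 fold change of −1.70 ± 0.69 did not pass (adjusted p = 0.353 by edgeR and 0.115 by DESeq2).

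The other ligands overlapped between the groups. Bmp4, the BMP of the dermal papilla, ran from 13.1 to 27.5 CPM in osimertinib skin and from 13.9 to 40.0 CPM in control skin, and its log2 fold change of −0.40 ± 0.44 was within its error. Bmp6, Gdf10 and Tgfb3 had log2 fold changes of −0.36 ± 0.29, −0.30 ± 0.43 and −0.33 ± 0.38, and Tgfb2 one of 0.26 ± 0.31. The Bmp6 gene overlaps Txndc5 on the opposite strand, and the sources used here do not say whether strand was used in counting. Bmp5 ran from 0 to 0.477 CPM in osimertinib skin and from 0.349 to 0.668 CPM in control skin, and Bmp8a from 0.193 to 1.48 CPM and from 0 to 0.306 CPM. A count of 0 allows up to 0.0501 CPM in osimertinib library 1, where Bmp5 was at 0. For Bmp8a at 0 in controls 1 and 3 the limits are 0.0554 and 0.0525 CPM, all before TMM scaling and for counting error only. The median log2 fold change of the 11 tested ligands was −0.30, beside −0.05 for all genes tested.

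**Figure D3:**
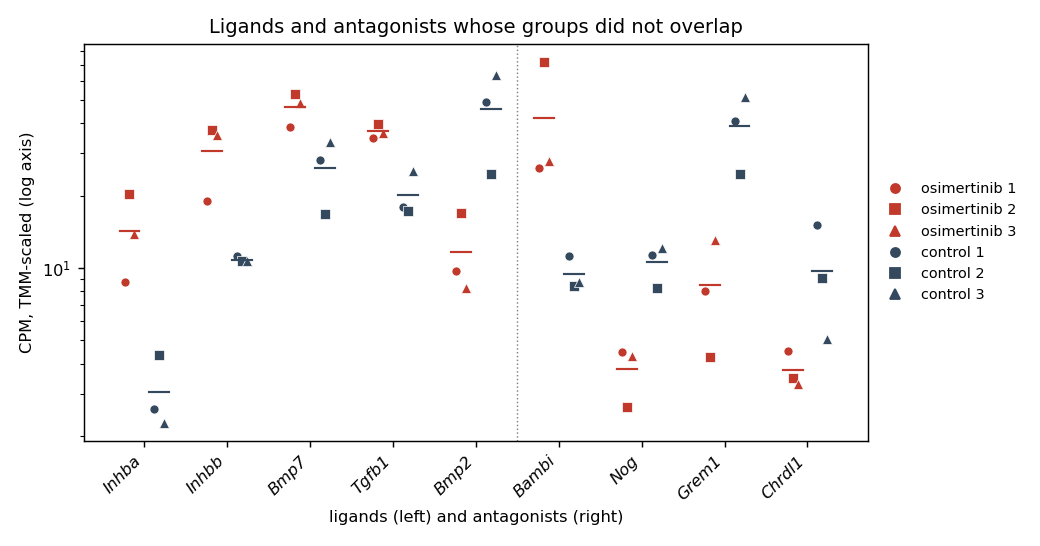
Points give CPM on a log axis for the ligands (left of the dotted line) and antagonists (right) whose groups did not overlap, in osimertinib (red, left of each pair) and control libraries (dark, right), with the group mean as a bar. Inhba, Inhbb, Bmp7, Tgfb1 and Bambi are higher and Bmp2, Nog, Grem1 and Chrdl1 lower in all 3 osimertinib libraries.

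Ratios within a library do not depend on the scaling between libraries. The FPKM of Bmp7 over that of Bmp2 was 3.5, 2.77 and 5.20 in osimertinib libraries 1, 2 and 3, against 0.504, 0.607 and 0.465 in controls 1, 2 and 3. Bmp7 thus exceeded Bmp2 in each treated library and was below it in each control. Bmp2 made up 11.2% ± 1.63 of the summed FPKM of the 8 BMP and GDF ligands in osimertinib skin and 32.0% ± 5.94 in control skin, and Bmp7 41.6% ± 8.51 and 16.6% ± 2.17 (SD, n = 3 each). The sum itself overlapped, at 20.7 to 33.9 FPKM in osimertinib skin and 16.3 to 44.3 FPKM in control skin. The summed FPKM of Inhba and Inhbb over that of Fst was 0.978, 2.03 and 1.09 in osimertinib skin, against 0.283, 0.444 and 0.194 in control skin. These ratios were formed from genes whose differences were already known and are given as descriptions.

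**Figure D4:**
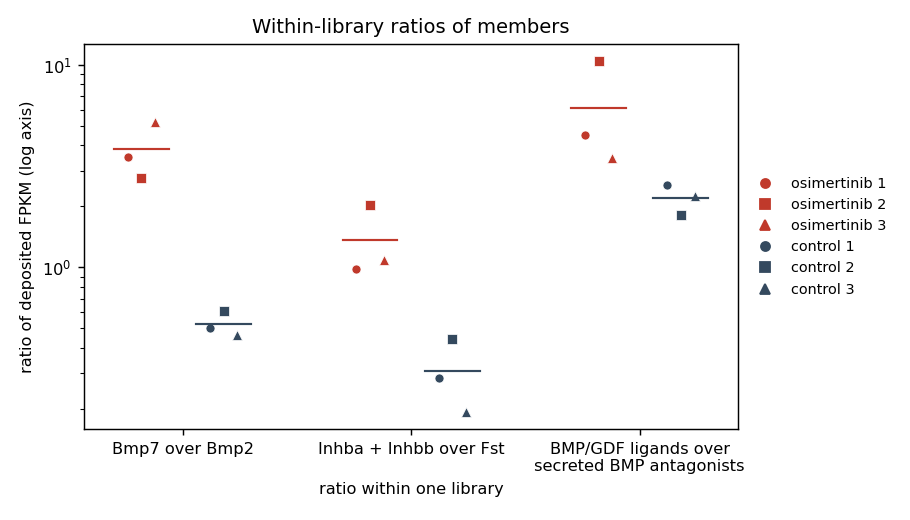
Points give ratios of deposited FPKM within a library on a log axis, in osimertinib (red, left) and control libraries (dark, right), with the group mean as a bar. In each of the 3 ratios the osimertinib libraries lie above the controls, with Bmp7 over Bmp2 at 2.77 to 5.20 against 0.465 to 0.607. The antagonists summed are Nog, Grem1, Chrd and Chrdl1 only, without the more abundant Nbl1 and Sostdc1. The ligand sum includes Bmp3, which acts mainly as an inhibitor.

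Receptor log2 fold changes ran from −0.76 to 0.76, and ligand log2 fold changes from −1.98 to 2.22. Tgfbr3, the betaglycan co-receptor that presents TGF-beta 2 to the signalling receptors, was at 30.7, 21.7 and 39.4 CPM in osimertinib skin, against 62.1, 42.6 and 51.2 CPM in control skin. Its log2 fold change was −0.76 ± 0.27 (adjusted p = 0.31 by edgeR and 0.103 by DESeq2). Tgfbr2, the type II TGF-beta receptor, was at 65.3, 37.1 and 59.3 CPM in osimertinib skin, against 89.6, 71.0 and 77.2 CPM in control skin. The groups were close without overlap, and the log2 fold change was −0.56 ± 0.25 (adjusted p = 0.381 by edgeR). Acvr2a, a type II receptor for activins and some BMPs, was at 21.8, 23.6 and 23.5 CPM in osimertinib skin, against 32.4, 24.7 and 32.2 CPM in control skin. Its log2 fold change of −0.37 ± 0.17 did not pass (adjusted p = 0.391 by edgeR), and the gene overlaps Orc4 on the opposite strand. With the deposited FPKM these 3 receptor genes overlapped between the groups.

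Bmpr1a and Bmpr2 had log2 fold changes within their errors. Bmpr1a, the main type I BMP receptor of skin epithelium, ran from 83.05 to 93.5 CPM in osimertinib skin and from 67.3 to 91.3 CPM in control skin (log2 fold change 0.09 ± 0.17). Bmpr2, the type II BMP receptor, ran from 93.0 to 102 CPM and from 92.3 to 114 CPM (−0.07 ± 0.16). Per length, Bmpr1a was the most abundant of the 10 receptor members, with 12.2 ± 0.97 FPKM in osimertinib skin and 10.7 ± 1.19 FPKM in control skin (SD, n = 3 each). Acvr1, another type I receptor for BMPs, had a log2 fold change of 0.40 ± 0.25. Acvrl1, the type I receptor of endothelium, was at 12.3, 11.5 and 19.9 CPM in osimertinib skin, against 21.1, 20.8 and 17.3 CPM in control skin (−0.44 ± 0.26). The 12 endothelial markers took 0.0296%, 0.0266% and 0.0578% of the count in the same osimertinib libraries, against 0.0412%, 0.0424% and 0.0316% in the controls, with none at 0. Osimertinib 3 was highest in both its group's Acvrl1 and endothelial share, and control 3 lowest in both, and the part of this in the difference was not tested. Tgfbr1, the type I TGF-beta receptor, was at 31.3, 37.6 and 40.9 CPM in osimertinib skin, against 28.1, 34.9 and 2.09 CPM in control skin. Control 3 stood apart, and without it the log2 fold change was 0.22, against 0.76 ± 0.86 with it. Bmpr1b, a further type I BMP receptor that was below the filter, ran from 1.49 to 2.71 CPM in osimertinib skin and from 2.17 to 3.80 CPM in control skin, with a log2 fold change of −0.48 ± 0.38 in the fit without the filter. Acvr2b, a type II activin receptor also below it, ran from 2.67 to 2.92 CPM in osimertinib skin and from 2.47 to 2.90 CPM in control skin. The median log2 fold change of the 8 tested receptors was −0.22.

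The antagonist genes differed in direction. Every osimertinib library was below every control for Grem1 and Nog and above every control for the pseudoreceptor gene Bambi, and Chrd overlapped between the groups. Grem1 encodes gremlin, a secreted antagonist of Bmp2 and Bmp4 (chromosome 2, 113746164 to 113758646). It was at 7.99, 4.28 and 13.1 CPM in osimertinib skin, against 41.1, 24.7 and 51.3 CPM in control skin. Every treated value was below every control, 4.61-fold lower in the fit (log2 fold change −2.21 ± 0.48, adjusted p = 0.204 by edgeR and 0.000343 by DESeq2). Nog encodes noggin, which blocks the receptor-binding faces of BMPs (chromosome 11, 89300638 to 89302332). It was at 4.46, 2.65 and 4.28 CPM in osimertinib skin, against 11.3, 8.26 and 12.1 CPM in control skin. The groups were apart, 2.78-fold lower in the fit (log2 fold change −1.47 ± 0.31, adjusted p = 0.192 by edgeR and 0.00016 by DESeq2). Chrdl1, a chordin-like antagonist of Bmp4, was at 4.5, 3.5 and 3.30 CPM in osimertinib skin, against 15.1, 9.11 and 5.05 CPM in control skin. It was below the filter on mean FPKM. Without that filter its log2 fold change was −1.33 ± 0.42 (adjusted p = 0.383 by edgeR).

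Summed over Nog, Grem1, Chrd and Chrdl1, secreted BMP antagonists stood at 4.81, 3.26 and 5.95 FPKM in osimertinib libraries 1, 2 and 3, against 16.9, 8.98 and 19.7 FPKM in the controls. The summed FPKM of the 8 BMP and GDF ligands was 4.51, 10.4 and 3.48 times that of the antagonists in osimertinib skin, and 2.56, 1.81 and 2.25 times in control skin. This is a ratio of transcripts, not of proteins or of activity, and it depends on which ligands and antagonists are summed. The ligand sum includes Bmp3, which acts mainly as an inhibitor, at a mean of 1.23 FPKM in osimertinib skin and 4.05 FPKM in control skin. Nbl1 and Sostdc1, antagonists outside the members, were more abundant than the antagonists summed, were not in their sum and overlapped between the groups in FPKM. Nbl1 was at 33.2, 22.5 and 34.7 FPKM in osimertinib skin, against 55.6, 28.9 and 68.4 FPKM in control skin. Sostdc1 was at 16.7, 18.9 and 21.5 FPKM, against 13.5, 10.7 and 30.4 FPKM.

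Bambi encodes a truncated type I receptor that binds ligand and receptors but has no kinase, and BMP signalling is known to induce it (chromosome 18, 3507923 to 3516404). It was at 26.0, 72.0 and 28.0 CPM in osimertinib skin, against 11.2, 8.45 and 8.74 CPM in control skin. Each treated value was more than any control, and the log2 fold change was 2.15 ± 0.45 (adjusted p = 0.19 by edgeR and 0.000443 by DESeq2). Fst, the activin-binding follistatin, was at 27.4, 27.2 and 44.4 CPM in osimertinib skin, against 49.1, 32.9 and 67.9 CPM in control skin, where osimertinib 3 and control 2 crossed (log2 fold change −0.60 ± 0.33). Its relative Fstl3 ran from 10.1 to 13.0 CPM in osimertinib skin and from 6.36 to 23.4 CPM in control skin (−0.46 ± 0.46), and Chrd from 2.60 to 3.75 CPM and from 1.96 to 5.66 CPM. Chrd overlaps Thpo on the opposite strand. The median log2 fold change of the 5 tested antagonists was −0.60.

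The downstream genes fell into groups with different values. Id1 to Id4 encode inhibitors of basic helix-loop-helix factors and are induced directly by BMP-activated SMADs. Id1 was at 78.8, 86.0 and 102 CPM in osimertinib skin, against 84.4, 58.5 and 136 CPM in control skin, with a log2 fold change of −0.06 ± 0.32. Id3 was at 95.2, 100 and 113 CPM in osimertinib skin, against 99.6, 67.9 and 115 CPM in control skin (0.13 ± 0.23). Id2 and Id4 had log2 fold changes of −0.15 ± 0.26 and −0.22 ± 0.30. In all 4 genes the treated values lay inside or across the control range, and the sign for Id1 turned in 7 of 17 alternative analyses. Their summed level was 143 ± 19.5 FPKM in osimertinib skin and 143 ± 66.3 FPKM in control skin (SD, n = 3 each).

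Neither of the inhibitory SMAD genes, whose products feed back on the receptors, passed a test, though both were apart in CPM. Smad6, the inhibitor of BMP receptor signalling, was at 5.91, 15.2 and 7.22 CPM in osimertinib skin, against 5.27, 4.08 and 3.82 CPM in control skin. Osimertinib 1 was only slightly above control 1, and the log2 fold change was 1.10 ± 0.41 (adjusted p = 0.333 by edgeR and 0.139 by DESeq2). Smad7, which inhibits TGF-beta as well as BMP receptors, was at 11.7, 24.9 and 16.7 CPM in osimertinib skin, against 10.2, 7.25 and 10.8 CPM in control skin. Its log2 fold change was 0.92 ± 0.33 (adjusted p = 0.322 by edgeR and 0.117 by DESeq2), and without osimertinib 2 the values for Smad6 and Smad7 were 0.58 and 0.60. Smad1, the BMP-activated transducer, was at 41.4, 47.9 and 52.3 CPM in osimertinib skin, against 33.9, 27.2 and 42.3 CPM in control skin, where osimertinib 1 was below control 3 (log2 fold change 0.45 ± 0.21, adjusted p = 0.397 by edgeR). Smad5, its close relative, was at 113, 115 and 13.8 CPM in osimertinib skin, against 148, 96.1 and 122 CPM in control skin. Osimertinib 3 stood apart from the other 5 libraries, and without it the log2 fold change was −0.07, against −0.60 ± 0.72 with it. The median log2 fold change of the 8 genes of this class was 0.03.

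The order of the osimertinib libraries was shared among the members above the controls. All 7 members above the controls were highest in osimertinib 2 and lowest in osimertinib 1. How many of all genes above the controls had this order was not counted, so it may belong to the library and not to these genes. Of all genes tested, 112 were more than 5-fold above every other library in osimertinib 2, against 1 to 4 in the others. Osimertinib 2 was also the library with the most hair matrix and shaft transcript, 0.518% of its count. Of the 6 tested members below the controls, 4 were lowest in osimertinib 2, and the highest osimertinib library was split evenly among the 3. Control 2, the library with the most muscle transcript, held the lowest control value of all 6 members below the controls and of 5 of the 7 above them. The part of tissue make-up in this order was not tested. Without control 3, which held little muscle, 8 members lay above and 9 below the remaining controls, beside 19.3% and 15.3% of all genes. Without control 2 the counts were 9 and 11, beside 21.9% and 24.8%.

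The start regions of a few members are shown because these genes stood at the ends of the range or set the targets apart: Inhba and Grem1 had the highest and the lowest log2 fold change, and Smad6 and Id3 are BMP targets with and without a separation of the groups. Each sequence runs 5′ to 3′ on the gene's strand from 250 bases before to 50 bases after the RefSeq start (GRCm38.p6). Capitals mark matches, on either strand, to the SMAD motifs GGCGCC and CAGAC, the AP-1 motif TGANTCA and the TCF/LEF motif CTTTGA, and no marked matches overlap. Inhba lies at chr13:16011601-16011900 on the plus strand, Grem1 at chr2:113758599-113758898 on the minus strand, Smad6 at chr9:64022010-64022309 on the minus strand and Id3 at chr4:136143572-136143871 on the plus strand.
Inhba: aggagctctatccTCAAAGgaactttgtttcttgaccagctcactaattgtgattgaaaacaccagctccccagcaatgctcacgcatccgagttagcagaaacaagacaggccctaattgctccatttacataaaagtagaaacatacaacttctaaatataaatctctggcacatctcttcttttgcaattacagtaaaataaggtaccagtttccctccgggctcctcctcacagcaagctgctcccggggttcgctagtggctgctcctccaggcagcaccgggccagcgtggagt
Grem1: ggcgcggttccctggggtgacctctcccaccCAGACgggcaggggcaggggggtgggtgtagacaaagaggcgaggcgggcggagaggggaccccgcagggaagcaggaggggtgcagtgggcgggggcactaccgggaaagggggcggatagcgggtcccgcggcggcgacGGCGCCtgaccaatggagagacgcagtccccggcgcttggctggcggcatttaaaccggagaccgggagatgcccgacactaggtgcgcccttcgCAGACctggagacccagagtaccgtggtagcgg
Smad6: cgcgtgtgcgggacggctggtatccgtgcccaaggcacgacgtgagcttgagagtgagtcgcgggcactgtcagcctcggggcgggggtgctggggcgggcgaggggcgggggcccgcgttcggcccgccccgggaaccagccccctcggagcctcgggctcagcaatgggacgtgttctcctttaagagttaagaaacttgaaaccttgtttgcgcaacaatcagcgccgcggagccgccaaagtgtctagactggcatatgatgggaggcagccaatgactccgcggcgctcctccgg
Id3: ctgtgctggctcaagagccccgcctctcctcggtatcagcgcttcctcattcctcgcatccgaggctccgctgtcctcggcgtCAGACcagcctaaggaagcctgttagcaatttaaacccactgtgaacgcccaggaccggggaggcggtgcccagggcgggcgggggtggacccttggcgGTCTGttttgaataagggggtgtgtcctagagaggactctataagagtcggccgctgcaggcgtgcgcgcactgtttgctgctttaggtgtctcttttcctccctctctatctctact

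In these windows Grem1 held 1 GGCGCC and 2 CAGAC matches, Id3 held 2 CAGAC matches, Inhba held 1 TCF/LEF match and Smad6 held none of the 4 motifs. The Id3 start in RefSeq lies 325 bases from the deposited gene start. RefSeq start regions were found for 26 of the 38 members, 31 regions in all. The Bmpr1b regions lay 186949 to 237793 bases from the deposited gene start, and a Tgfbr1 region 32994 bases from it. GGCGCC was in 10 of the 31 (32.3%), against 11.9% of all 32851 start regions of the same length, and CAGAC in 16 (51.6%), against 49.6%. Overlapping Smad5 regions held the same GGCGCC match, which was counted for each. By gene, GGCGCC was in 9 of the 26 members and CAGAC in 15. TGANTCA was in 0 of the 31, against 7.81%, and CTTTGA in 2 (6.45%), against 16.0%. The members' regions were also richer in G and C, with a median of 65.0% against 52.7%. A match is a stretch of letters and not a measured binding site.

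Other genes of the pathway were taken from 7 lists of ligands, receptors, antagonists, SMAD co-factors, latent TGF-beta storage, BMP targets and TGF-beta targets. Of 98 matched genes 70 were tested, and edgeR called 0. DESeq2 called 7 higher and 4 lower, against 3.41% and 2.95% of all genes. At an unadjusted p under 0.05 edgeR took 9 as higher and 10 as lower, against 7.22% and 6.73% of all genes. In CPM 9 lay above and 9 below the controls without overlap, beside 11.3% and 9.38% of all genes, and the median log2 fold change was −0.04. These counts include 3 genes that passed the filter only through the group where they were high, and such genes had to differ. Msx1 averaged 7.80 FPKM in osimertinib skin and 0.922 FPKM in control skin, Emilin1 2.02 and 0.854 FPKM, and Ltbp2 0.929 and 3.71 FPKM.

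The BMP target list was the one with most genes apart, 4 above and 1 below among 9 tested, beside 11.3% and 9.38% of all genes. The 1 below was Nfatc1, a factor of bulge stem cells, at −0.90. Msx2, a homeobox factor of the hair matrix, was at 43.5, 127 and 49.1 CPM in osimertinib skin, against 3.23, 7.75 and 4.41 CPM in control skin (log2 fold change 3.84 ± 0.58, adjusted p = 0.152 by edgeR). Its relative Msx1 was at 15.5, 37.1 and 28.4 CPM, against 3.52, 5.24 and 2.01 CPM (2.91 ± 0.49). Dlx3 and Foxn1, transcription factors of hair differentiation, had log2 fold changes of 3.66 ± 0.61 and 2.58 ± 0.73. DESeq2 called these 4 genes higher, of which Msx1 had passed the filter only through its osimertinib level. Msx2, Dlx3 and Foxn1 also stand in the hair matrix marker list, and their difference from the Id genes was not tested.

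**Figure D5:**
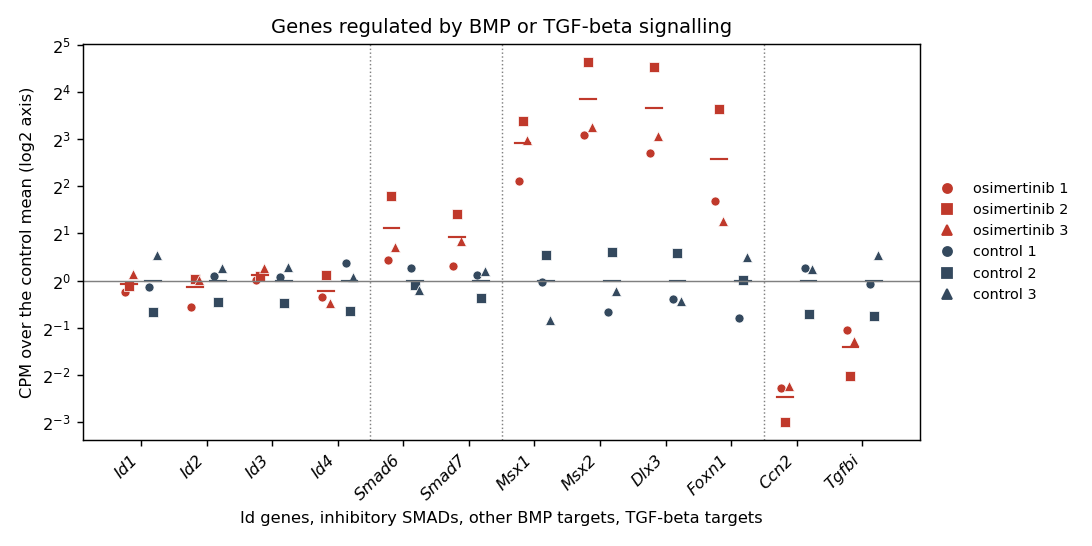
Points give CPM divided by the control mean on a log2 axis for Id genes, inhibitory SMADs, other BMP targets and TGF-beta targets (left to right, split by dotted lines), in osimertinib (red, left) and control libraries (dark, right), with the group mean as a bar. The Id genes scatter around 1 in both groups, Smad6 and Smad7 lie modestly above it in osimertinib skin, Msx1, Msx2, Dlx3 and Foxn1 far above it, and Ccn2 and Tgfbi below it. The other BMP and TGF-beta targets shown are a selection and do not stand for their lists. Over the whole lists 4 of 9 tested BMP targets and 5 of 15 TGF-beta targets had log2 fold changes above 0. The list medians were −0.30 and −0.13.

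Genes of TGF-beta storage and response differed both ways. Ccn2, a matricellular protein that TGF-beta induces and that also answers to YAP, was at 51.3, 31.3 and 52.9 CPM in osimertinib skin, against 297, 153 and 296 CPM in control skin. All treated values were far below all controls (log2 fold change −2.46 ± 0.36, adjusted p = 0.152 by edgeR and 1.31e-09 by DESeq2). Tgfbi, an extracellular matrix protein induced by TGF-beta, had a log2 fold change of −1.40 ± 0.42, and Pmepa1, which dampens SMAD signalling, one of 1.03 ± 0.32. Timp1, a protease inhibitor, overlapped between the groups at 1.92 ± 0.68. In the whole list of 15 TGF-beta targets 1 lay above and 3 below the controls, beside 11.3% and 9.38% of all genes.
Ltbp2 encodes an elastic fibre protein that belongs to the latent TGF-beta binding protein family by name, though it is not known to bind latent TGF-beta. It was at 9.16, 7.07 and 9.70 CPM in osimertinib skin, against 36.5, 25.2 and 43.8 CPM in control skin (log2 fold change −2.02 ± 0.27, adjusted p = 0.128 by edgeR and 7.23e-11 by DESeq2). Emilin1, which limits TGF-beta maturation, had a log2 fold change of 1.14 ± 0.32, the integrin subunit Itgav, which helps release TGF-beta, one of −0.62 ± 0.23, and Ltbp1 one of 0.40 ± 0.21. Ltbp2 and Emilin1 passed the filter only through the group where they were high, so their differences and p-values are descriptions.

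Of 14 tested SMAD co-factors, 2 lay above the controls and 0 below, beside 11.3% and 9.38% of all genes. Those above were Runx1, a SMAD partner of the follicle (log2 fold change 1.44 ± 0.26), and Tgif2, a co-repressor (1.41 ± 0.33), both called by DESeq2. Nedd4l and Zfyve9 followed at −0.89 ± 0.33 and −0.38 ± 0.19. Of 9 other antagonists 2 lay below and 0 above, beside 9.38% and 11.3% of all genes. Crim1 and Nbl1, which bind BMPs, differed by −0.76 ± 0.23 and −0.78 ± 0.29, followed by Twsg1 at −0.40 ± 0.20 and Fstl1 at 0.50 ± 0.33. Of 7 other receptors 1 lay below, beside 9.38% of all genes. It was the BMP co-receptor Rgmb at −0.72 ± 0.24, and Cd109, a TGF-beta co-receptor, had −1.12 ± 0.44. Acvr1b and Rgma were at 0.12 ± 0.19 and 0.12 ± 0.24. None of the 5 genes tested from the list of other ligands was apart. Bmp1, which encodes a protease and not a ligand despite its name, differed by 0.30 ± 0.23. Inha, which encodes an inhibin subunit, and Gdf11 differed by 0.27 ± 0.26 and 0.87 ± 0.95. Mstn, the ligand myostatin of muscle, was at 97.7, 55.5 and 127 CPM in osimertinib skin, against 76.7, 363 and 0.0623 CPM in control skin, in the order of the muscle share among the controls.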

How the data were processed

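Polyadenylated RNA was made into dUTP-marked libraries with molecular identifiers and sequenced in pairs, per the labels' protocols. The submitters' processing notes name cutadapt 1.9 and GRCm38. For the aligner, the counter, the annotation and any use of strand or identifiers in counting, the entry is "not given in the sources used here". The deposited table holds raw counts per gene and, beside them, FPKM values computed by the authors, per the file headers. A further 6 columns of values match no sample and were not used. The start of 99.5% of 33211 identifiers shared with GENCODE mouse release 21 was the same.

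Counts were tested with edgeR 4.0.16 in R 4.3.3 (quasi-likelihood, TMM scaling, two-sided, Benjamini-Hochberg over the 13498 genes averaging 1 FPKM or more, threshold 0.05). CPM are counts over TMM-scaled totals. Standard errors are the log2 fold change over the square root of F. Fold changes are osimertinib over control, with 3 samples each. Alternatives used DESeq2 1.42.0, limma 3.58.1, other filters and scaling, and left-out samples. The tests were checked on simulated data, where edgeR missed most of the smaller changes and DESeq2 made many more false calls than edgeR. A library's total limits precision to counting error at best.

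The members, classes and lists were chosen with earlier results of these data known. Sample values are given for members whose groups do not overlap and for the 3 with the smallest p of each class, and up to 4 genes with the smallest p of each other pathway list are named. Sample values of Bmp3, Tgfbr1, Acvrl1, Fst, Id1, Id3 and Smad5, and the mention of Nfatc1, were added after their values were seen.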

Additional observations from a re-analysis of the deposited data

How the results depend on the processing

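With edgeR, 0 members passed under each of the 16 alternatives that used it or limma. DESeq2 called 460 genes higher and 398 lower, with 4 and 3 members and 7 and 4 other pathway genes among them. Leaving out each sample in turn, edgeR called 0 in all 6 cases, and DESeq2, an alternative added after the data were seen, called 479 genes higher and 568 lower without osimertinib 1, 313 and 251 without osimertinib 2, 331 and 296 without osimertinib 3, 226 and 142 without control 1, 1185 and 1200 without control 2, and 675 and 338 without control 3. Among these were 3 to 5 members higher and 3 to 7 lower, and 5 to 10 other pathway genes higher and 2 to 10 lower. Bambi, Inhba, Inhbb, Bmp2, Grem1 and Nog were called in each of these 6 cases. How many of all genes were called in all 6 was not counted. The 6 fits share most of their samples and the same filter, which Inhba passed through its osimertinib level alone. A mean FPKM of at least 5 gave 2 genes lower and a receptor median of −0.57, with fewer receptors tested. Limma gave 12 genes higher and 5 lower on log2(FPKM + 1), and 1 and 1 on log2(FPKM + 0.1), and moved the median of all genes to 0.07 and 0.10. The muscle score as a covariate gave 1 gene lower. The ligand median ran from −0.40 to 0.074 over the left-out samples, at −0.02 without osimertinib 1, 0.02 without control 1 and 0.074 without control 2, the receptor median from −0.23 to −0.15, the antagonist median from −0.84 to −0.31 and the target median from −0.17 to 0.31. The cause of these shifts was not tested.

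Signs turned only for members whose log2 fold change was within its error. With limma on log2(FPKM + 1) Bmpr2 was at 0.013 and Id1 at 0.098, and on log2(FPKM + 0.1) at 0.017 and 0.10. With the muscle covariate Bmpr1a was at −0.0091, Id1 at 0.29 and Id2 at 0.023, and with control 3 left out as well Bmpr1a was at −0.012 and Id1 at 0.25. Without osimertinib 1, Id1 and Id2 were at 0.016 and 0.022. Without control 1, Bmp4, Bmpr2 and Id4 were at 0.019, 0.0020 and 0.018. Without control 2, Tgfb3 and Id3 were at 0.074 and −0.041. Without control 3, Bmpr1a, Id1 and Id2 were at −0.036, 0.32 and 0.017. Over the left-out samples Bmp4 ran from −0.70 to 0.019, Tgfb3 from −0.61 to 0.074, Bmpr1a from −0.036 to 0.198, Id1 from −0.293 to 0.32, Id3 from −0.041 to 0.303 and Id4 from −0.427 to 0.018.

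The titles number the samples 1 to 3 in each group. With these numbers as a replicate block edgeR called 0 genes and Id1 turned to 0.013. Deviations of same-numbered samples correlated at 0.232, −0.0068 and −0.13 across genes, and of the 3 treated samples only number 1 correlated best with the control of its own number, so the numbers were not taken to pair the samples. Low counts limit Bmp5 and Bmp8a most.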

Other observations

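Some members were low in a single library. Smad5 in osimertinib 3 was 6.94 times below the next lowest library, and Tgfbr1 in control 3 was 13.4 times below it. Over all 13498 genes tested, 35 were more than 5-fold below every other library in osimertinib 3 and 360 in control 3, against 7 to 18 in the other 4 libraries. In osimertinib 2, 112 genes were more than 5-fold above every other library, against 1 to 4 in the others. These genes were picked after their values were seen.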
